A study of Mus musculus with 3 samples.

Results

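The genes described are 48 imprinted genes of the mouse, listed by symbol from general knowledge of imprinting and all found among the 23421 genes of the FPKM table. They fall into 18 clusters or single loci. Of the 48, 26 are known as paternally expressed, 20 as maternally expressed, and for 2, *Gnas* and *H13*, the expressed allele depends on the isoform. For 9 of them, all in the maternally expressed set, imprinting was listed as known mainly from the placenta or the brain. Long non-coding RNAs make up 7 of the 48.

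RNA-seq was carried out on 3 libraries of E6.5 embryos of strain 129/SvEv, 1 wild type, 1 *tw18*/+ and 1 *tw18*/*tw18*, all collected from crosses between *tw18*/+ mice. *tw18* is a *t* haplotype, a variant form of a region of Chr 17 known from wild mice. It arose when a *t* haplotype recombined with a wild-type chromosome. It carries a large deletion that removes many genes, among them *Ppp2r1a*, the gene for a scaffold subunit of protein phosphatase 2A. Stage and strain are those of the labels. In its staining of embryos collected at this age, the study describes the mutant ones as slightly younger. It also proposes that non-inbred backgrounds, differing between embryos, may vary the phenotype. The labels name the tissue as epiblast. According to the study's methods the part used for RNA was the embryo proper, that is epiblast with the visceral endoderm around it, and the extra-embryonic part was kept for genotyping. How many embryos went into a library is not given in the sources used here. With 1 library for each genotype, the spread between embryos is unknown and no test was run.

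Imprinted genes are transcribed mainly from 1 parental allele. For most of them the choice depends on DNA methylation placed in the egg or the sperm at imprinting control regions. This methylation is kept through the wave of demethylation of the early embryo by factors such as ZFP57 and TRIM28. Many of these genes act on growth and the placenta, and several clusters are organised around a long non-coding RNA that keeps its neighbours silent on the same chromosome. The FPKM table does not separate alleles, so parental origin is background here and only the summed output of both alleles was measured.

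FPKM is the number of fragments on a gene scaled to transcript length and to the size of the library. Low FPKM values of genes with a single annotated transcript step by what 1 fragment is worth, which gave 0.0728, 0.0518 and 0.0522 FPKM per fragment for a transcript of 1 kb in wild type, *tw18*/+ and *tw18*/*tw18*. Both mutant libraries were therefore about 1.4 times as deep as wild type, by an estimate. Fragment numbers given below are estimates of the same kind, and their 95% intervals cover counting error only. *Ppp2r1a* had an FPKM of 146, 81.7 and 12.8 in wild type, *tw18*/+ and *tw18*/*tw18*, in the order of the labels. Its value in *tw18*/*tw18* was above 0 although the deletion removes the gene. Where these fragments came from was not tested, and this limits every ratio of *tw18*/*tw18*. Some zeros in the table stand beside high values. *Lars2*, a mitochondrial leucyl-tRNA synthetase, had 11199 and 9689 in wild type and *tw18*/+ and is listed at 0 in *tw18*/*tw18*, and the DNA methyltransferase *Dnmt3a* had 35.1 and 24.2 in wild type and *tw18*/*tw18* and is listed at 0 in *tw18*/+. A gene at 0 is therefore called listed at 0, and no ratio is given for it.

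The promoters of the 7 genes with the largest log2 ratios in either direction between *tw18*/*tw18* and wild type are shown to set the sequence beside the values. Each is the window from 250 bases before to 50 bases after an annotated RefSeq start (GRCm38.p6), written along the transcript, with capitals for TGCCGC, the core motif that ZFP57 binds when it is methylated, or for its reverse complement GCGGCA. The windows are those of *Dio3* at chr12:110278980-110279279 (plus strand), *Zrsr1* at chr11:22971755-22972054 (plus strand), *Plagl1* at chr10:13090582-13090881 (plus strand), *Snurf* at chr7:60005150-60005449 (minus strand), *Magel2* at chr7:62376729-62377028 (plus strand), *Mkrn3* at chr7:62420104-62420403 (minus strand) and *Nap1l5* at chr6:58907077-58907376 (minus strand).
Dio3: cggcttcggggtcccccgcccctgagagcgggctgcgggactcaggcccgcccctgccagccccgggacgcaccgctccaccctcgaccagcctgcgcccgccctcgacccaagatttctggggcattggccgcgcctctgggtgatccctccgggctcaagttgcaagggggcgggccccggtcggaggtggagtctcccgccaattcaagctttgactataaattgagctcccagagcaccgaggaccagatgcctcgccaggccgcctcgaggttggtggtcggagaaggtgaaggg
Zrsr1: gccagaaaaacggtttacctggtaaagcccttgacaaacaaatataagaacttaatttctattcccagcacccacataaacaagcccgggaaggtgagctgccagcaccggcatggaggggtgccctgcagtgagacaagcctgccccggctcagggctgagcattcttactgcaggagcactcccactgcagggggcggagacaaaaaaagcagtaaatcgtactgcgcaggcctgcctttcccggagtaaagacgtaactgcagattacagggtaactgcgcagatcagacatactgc
Plagl1: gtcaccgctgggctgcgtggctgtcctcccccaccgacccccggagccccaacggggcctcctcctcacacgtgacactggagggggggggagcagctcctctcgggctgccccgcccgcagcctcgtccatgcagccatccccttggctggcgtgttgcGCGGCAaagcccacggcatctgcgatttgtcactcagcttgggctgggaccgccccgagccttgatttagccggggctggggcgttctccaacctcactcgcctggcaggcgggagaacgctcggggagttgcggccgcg
Snurf: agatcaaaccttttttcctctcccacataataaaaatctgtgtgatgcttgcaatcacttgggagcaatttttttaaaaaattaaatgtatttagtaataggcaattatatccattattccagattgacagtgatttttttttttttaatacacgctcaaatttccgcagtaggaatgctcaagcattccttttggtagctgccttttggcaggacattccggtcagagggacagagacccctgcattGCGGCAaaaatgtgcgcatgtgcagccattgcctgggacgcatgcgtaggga
Magel2: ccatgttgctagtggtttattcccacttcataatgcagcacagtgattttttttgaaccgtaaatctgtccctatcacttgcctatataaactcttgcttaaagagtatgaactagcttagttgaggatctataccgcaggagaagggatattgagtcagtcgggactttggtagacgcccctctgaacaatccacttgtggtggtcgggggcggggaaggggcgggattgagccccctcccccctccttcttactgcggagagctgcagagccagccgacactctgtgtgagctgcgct
Mkrn3: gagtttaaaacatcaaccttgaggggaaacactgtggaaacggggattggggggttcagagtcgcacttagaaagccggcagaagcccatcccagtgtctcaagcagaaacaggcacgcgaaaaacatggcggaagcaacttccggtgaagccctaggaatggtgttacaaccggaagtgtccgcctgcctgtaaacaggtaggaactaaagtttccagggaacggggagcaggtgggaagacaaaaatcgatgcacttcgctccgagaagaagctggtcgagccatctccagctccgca
Nap1l5: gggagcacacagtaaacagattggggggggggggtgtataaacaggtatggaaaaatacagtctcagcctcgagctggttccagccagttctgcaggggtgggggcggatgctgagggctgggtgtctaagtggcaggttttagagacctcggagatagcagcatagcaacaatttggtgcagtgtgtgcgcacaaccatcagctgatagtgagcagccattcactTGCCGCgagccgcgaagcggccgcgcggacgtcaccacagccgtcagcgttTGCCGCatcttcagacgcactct
The *Nap1l5* window holds 2 of these motifs, the *Plagl1* and *Snurf* windows 1 each, and the *Dio3*, *Zrsr1*, *Magel2* and *Mkrn3* windows none. CpG content differs among them, with 26 CpG in the *Plagl1* window, 25 in that of *Dio3*, 17 in *Nap1l5*, 15 in *Mkrn3*, 10 in *Zrsr1*, 10 in *Magel2* and 7 in *Snurf*. Windows were given for 40 of the 48 genes, 58 windows in all. TGCCGC stood on either strand of 16 of the 58 (27.6%), against 11.6% of all 32851 promoter windows of the same length. The member windows were also richer in CpG, with a median of 15 against 7. Among windows with at least 10 CpG the motif was in 13 of 39 member windows (33.3%) and in 22.5% of 14281 windows. It was in 32.3% of the windows of paternally expressed and 27.3% of those of maternally expressed genes. Some windows overlap, and the same *Snurf* window is also listed for *Snrpn*. With overlapping windows on 1 strand counted once, the motif was in 14 of 55 member stretches (25.5%) and in 11.7% of 30704 stretches overall. A match is a string of letters, and methylation was not measured. The windows are promoters and were not compared with imprinting control regions. A match or its absence here therefore does not show whether ZFP57 acts on a gene. The end of the printed window was not found in a transcript sequence for *Snurf*, *Magel2*, *Mkrn3* and *Nap1l5*, whereas it was for *Dio3*, *Zrsr1* and *Plagl1*.

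Of the 48 genes, 42 reached an FPKM of 1 in 1 or more of the libraries and 21 reached 10 in all 3. The summed FPKM of the 48 was 1544 in wild type, 1526 in *tw18*/+ and 1965 in *tw18*/*tw18*, or 0.348%, 0.335% and 0.513% of the sum of each library. The sum of the 26 paternally expressed genes was 494, 507 and 513. That of the 20 maternally expressed genes was 763, 742 and 1193. The maternally expressed sum was thus 1.56-fold higher in *tw18*/*tw18* than in wild type, and 1.37-fold higher without *H19*, its most abundant gene (482, 536 and 663). The paternally expressed sum lay within a narrow range. The 9 genes listed as imprinted mainly in the placenta or the brain are all in the maternally expressed set. They summed to 133, 173 and 177. The maternally and paternally expressed sets therefore differ in more than parental origin. *H19*, *Gnas* and *Grb10* had the highest values of the 48 in wild type.

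**Figure D1:**
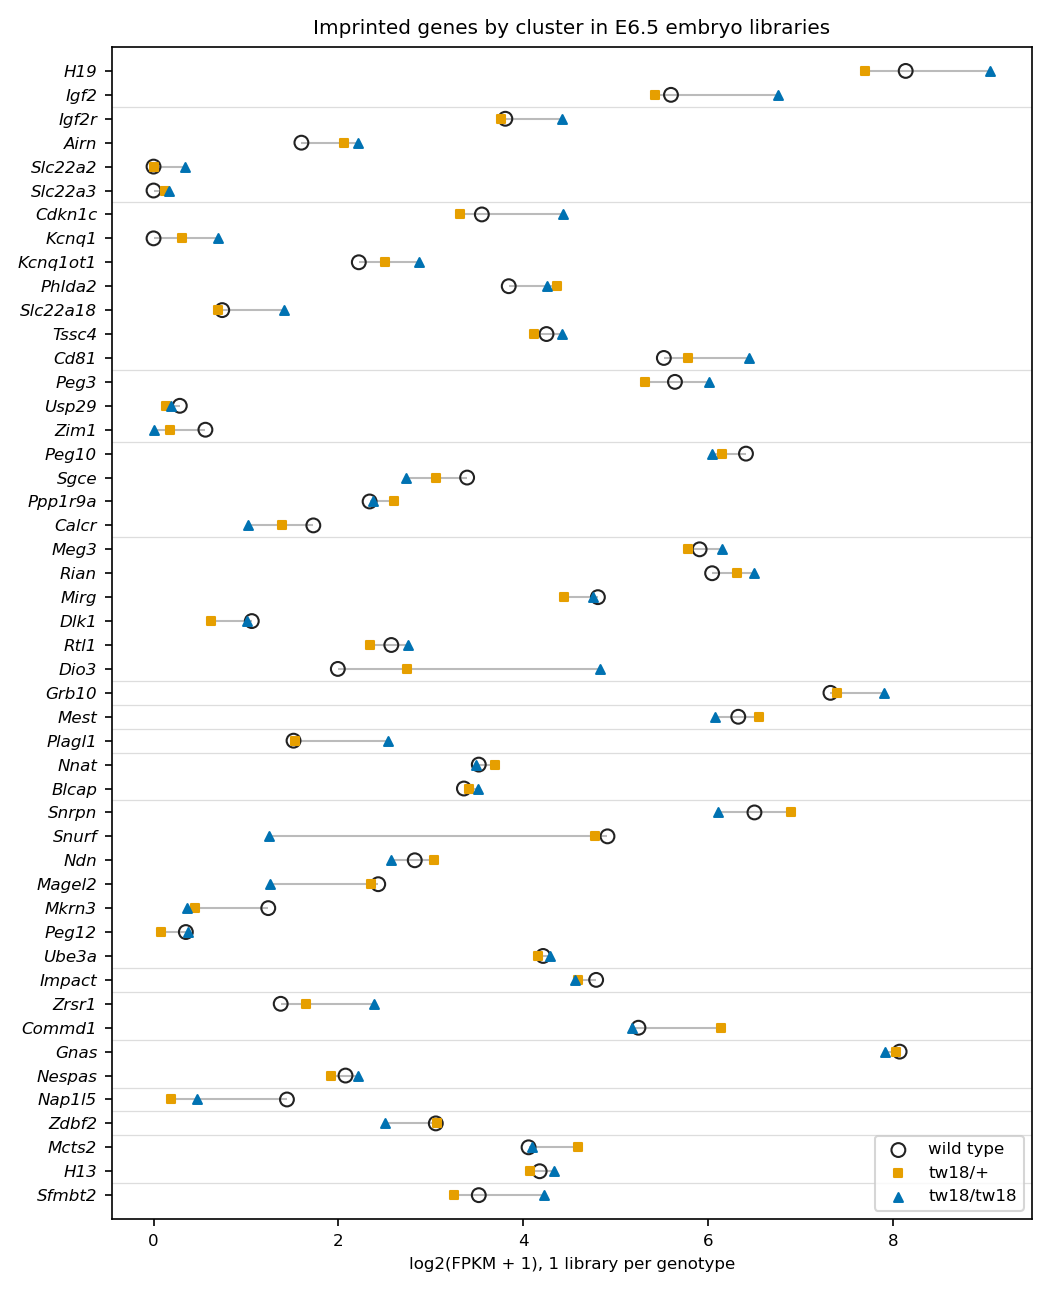
FPKM of the 48 imprinted genes in each library, drawn as log2(FPKM + 1), with genes in rows grouped by cluster and 1 point per library (open circle wild type, square tw18/+, triangle tw18/tw18). Grey lines join the lowest and the highest of the 3 values, and the widest spans are those of Snurf (29.1, 26.3 and 1.37) and Dio3 (2.98, 5.69 and 27.5).

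A gene was counted as past the threshold when it reached an FPKM of 1 in either library of a pair and differed by a log2 ratio of at least 1, that is 2-fold. Between *tw18*/*tw18* and wild type, 5 of 42 imprinted genes were past it towards higher values (*Igf2*, *Slc22a18*, *Dio3*, *Plagl1* and *Zrsr1*) and 5 towards lower values (*Calcr*, *Snurf*, *Magel2*, *Mkrn3* and *Nap1l5*). This is 11.9% in each direction, against 15.1% higher and 6.94% lower among all 12917 genes that reached the FPKM. The share of imprinted genes with higher values was thus below that of all genes, and the share with lower values above it, but 5 genes in each direction do not set the imprinted genes apart from the rest. With the libraries scaled to equal FPKM sums, which moves every log2 ratio up by 0.21, the count became 10 higher (23.8%) and 4 lower (9.52%), against 19.3% and 4.89% of all genes, so that the share with higher values was then above that of all genes. These sums include *Lars2*, at 11199 in wild type and listed at 0 in *tw18*/*tw18*, so the size of this shift rests in part on a doubtful value. The values nearest the threshold were *Igf2* at a log2 ratio of 1.17 and *Calcr* at -1.16 inside it, and *Cd81* and *Cdkn1c* at 0.94 and *Sgce* at -0.76 outside it.

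Between *tw18*/+ and wild type, 0 of 41 imprinted genes were past the threshold towards higher and 3 (*Dlk1*, *Mkrn3* and *Nap1l5*; 7.32%) towards lower values, against 4.7% and 5.02% of 12426 genes. All 3 were low, at most 1.72 FPKM in any library. Between *tw18*/*tw18* and *tw18*/+, 7 of 40 (17.5%) were past it towards higher values, namely *H19*, *Igf2*, *Cdkn1c*, *Slc22a18*, *Dio3*, *Plagl1* and *Sfmbt2*, against 14.9% of 12846 genes. The 2 genes (5%) lower than in *tw18*/+ were *Snurf* and *Magel2*, against 5.65% of those genes. *Mkrn3* and *Nap1l5* were past the threshold in both mutant libraries against wild type, and both comparisons use the same wild-type library.

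The median log2 ratio of the 42 genes in *tw18*/*tw18* against wild type was 0.16, with 25 genes above 0 and 17 below, while the median of all genes was -0.016. It was 0.35 for 16 maternally expressed genes, 13 of them above 0, and -0.06 for 24 paternally expressed genes, 11 of them above 0. Among the 16 are 7 genes listed as imprinted mainly in the placenta or the brain, with a median of 0.08 and 5 above 0. The maternally expressed median kept its sign with equal FPKM sums, at 0.56, whereas the paternally expressed one changed sign to 0.15. The paternally expressed genes were spread more widely, from -4.41 to 3.21, than the maternally expressed ones, from -1.16 to 1.30, as the plot of all genes with the imprinted genes beneath shows. In *tw18*/+ against wild type the medians were -0.06 for all 41 genes, -0.12 for the paternally and -0.05 for the maternally expressed ones. *tw18*/*tw18* had the highest of the 3 values in 22 of 42 genes (52.4%), against 41.0% of the 13118 genes that reached an FPKM of 1 in any library, and the lowest in 14 (33.3%), against 40.9%.

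**Figure D2:**
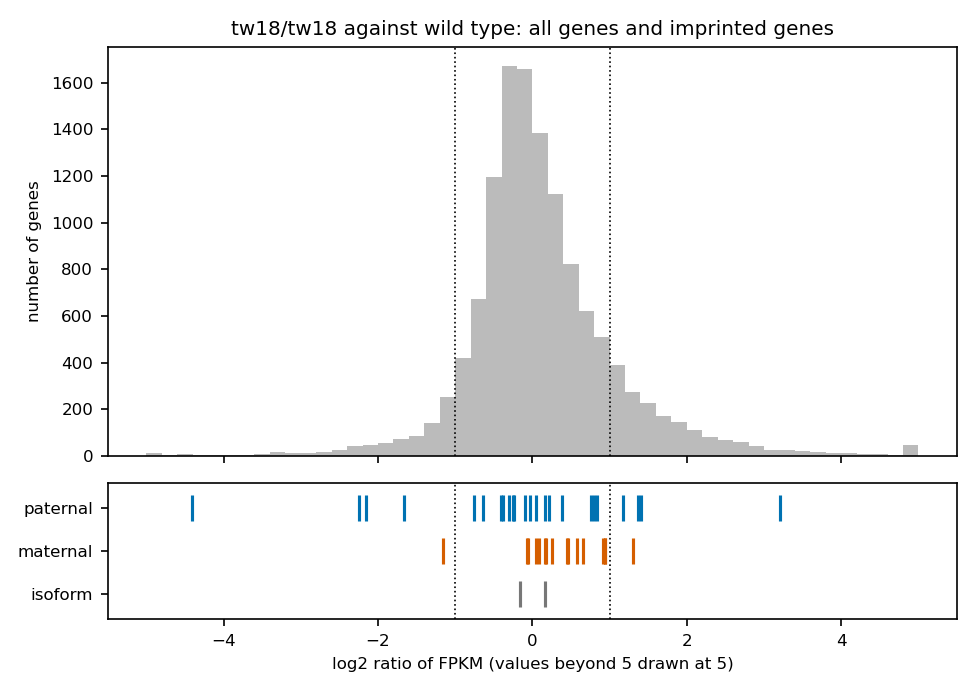
Number of genes (upper panel) by log2 ratio of FPKM between tw18/tw18 and wild type, for genes that reached an FPKM of 1 in either, and the imprinted genes as ticks by the expressed allele (lower panel). Dotted lines mark a log2 ratio of -1 and 1, and most ticks lie between them, with Dio3 at 3.21 and Snurf at -4.41 farthest out.

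*Igf2* and *H19* were among the imprinted genes with the highest values and both were higher in *tw18*/*tw18*. *Igf2*, a growth factor of the fetus and placenta that is paternally expressed, stood at 47.5 FPKM in wild type, 42.0 in *tw18*/+ and 107 in *tw18*/*tw18*, a log2 ratio of 1.17 against wild type. *H19* (chr7:142575529-142578143), the maternally expressed non-coding RNA that shares enhancers with *Igf2*, had 281, 207 and 531. Its log2 ratio was 0.92, under the threshold (counting interval 0.88 to 0.95), from about 8829 fragments in wild type and 23245 in *tw18*/*tw18*, and 1.36 against *tw18*/+. Both were thus highest in *tw18*/*tw18*, and *H19* stood at 5.92, 4.92 and 4.96 times the FPKM of *Igf2* in the 3 libraries.

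The receptors and adaptors that act on IGF signalling differed less. *Igf2r*, the maternally expressed receptor that clears IGF2, had 13, 12.6 and 20.4, a log2 ratio of 0.65 (counting interval 0.57 to 0.74) in *tw18*/*tw18* and -0.05 in *tw18*/+. *Grb10*, an adaptor that dampens insulin and IGF receptor signalling, had 159, 167 and 239, a log2 ratio of 0.58. *Igf2r* lies on Chr 17 (chr17:12682406-12769664), the chromosome of the *tw18* deletion, but outside the stretch that the study mapped as deleted. So do *Airn*, the paternally expressed non-coding RNA antisense to *Igf2r*, and the organic cation transporters *Slc22a2* and *Slc22a3*, imprinted in the placenta. *Airn* had 2.03, 3.18 and 3.63, higher than wild type in both mutant libraries with log2 ratios of 0.64 and 0.84. *Slc22a2* and *Slc22a3* are listed at 0 in wild type and stayed under 0.3 in every library. The FPKM of *Igf2r* over that of *Airn* was 6.40, 3.96 and 5.63. Neither *Igf2r* nor *Airn*, the genes of this cluster that reached an FPKM of 1, was lower in *tw18*/*tw18*, unlike *Ppp2r1a* in the deletion.

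In the *Kcnq1* cluster of Chr 7 the 6 genes that reached an FPKM of 1 all had a log2 ratio above 0 in *tw18*/*tw18* against wild type, with a median of 0.87. Of all genes with such a ratio, 6197 of 12625 were above 0. Imprinting of *Cd81* and *Tssc4* was listed as known mainly from the placenta, and exons of each overlap a gene on the opposite strand. Only *Slc22a18*, a maternally expressed membrane transporter, was past the threshold, with 0.674, 0.621 and 1.66 and a log2 ratio of 1.30. *Cdkn1c*, the inhibitor of cyclin-dependent kinases that restrains growth, had 10.7, 8.93 and 20.6, and *Cd81*, a tetraspanin of the cell surface, 45.0, 54.0 and 86.3. Their log2 ratios of 0.94 were just under the threshold. *Kcnq1ot1*, the paternally expressed antisense RNA that silences this cluster, was higher as well, with 3.66, 4.69 and 6.35 and a log2 ratio of 0.79 from about 4686, 8420 and 11327 fragments. *Phlda2*, which restrains placental growth, had 13.4, 19.7 and 18.2 (log2 ratio 0.44, counting interval 0.14 to 0.75), and *Tssc4* 18.1, 16.3 and 20.5. *Kcnq1*, a potassium channel subunit, is listed at 0 in wild type and had 0.240 and 0.620 in the mutant libraries. In *tw18*/+ the cluster had log2 ratios from -0.27 to 0.56.

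The *Dlk1*-*Dio3* cluster of Chr 12 held the largest ratio towards higher values among the 42 genes. *Dio3* (chr12:110279068-110281097), whose product inactivates thyroid hormone and is known from the placenta and the pregnant uterus, had 2.98 in wild type, 5.69 in *tw18*/+ and 27.5 in *tw18*/*tw18*. It was 9.22-fold higher in *tw18*/*tw18* than in wild type, a log2 ratio of 3.21 (counting interval 2.89 to 3.55) from about 83 and 1071 fragments, and 0.93 in *tw18*/+ from about 223 fragments. The other genes of the cluster did not share this difference. *Rtl1*, a retrotransposon-derived gene needed for the placenta, had 4.95, 4.09 and 5.76, and *Dlk1*, a membrane protein related to Notch ligands, 1.09, 0.538 and 1.02. *Dlk1* was past the threshold in *tw18*/+ alone, at -1.02, with all 3 values near or under an FPKM of 1. The maternally expressed non-coding RNAs *Meg3* (59.1, 54.0 and 70.3), *Rian* (65.0, 78.6 and 89.3), which hosts small nucleolar RNAs, and *Mirg* (27.0, 20.7 and 25.9), which hosts microRNAs, had log2 ratios of 0.25, 0.46 and -0.06 in *tw18*/*tw18*. *Meg3* stood at 19.8 times the FPKM of *Dio3* in wild type, 9.49 times in *tw18*/+ and 2.55 times in *tw18*/*tw18*, whereas its ratio to *Rtl1* stayed at 11.9, 13.2 and 12.2.

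In the *Snrpn*-*Ube3a* cluster of Chr 7, the mouse counterpart of the Prader-Willi and Angelman region, 5 of the 6 genes that reached an FPKM of 1 were lower in *tw18*/*tw18* than in wild type, with a median log2 ratio of -1.03. Without *Snurf*, whose value is uncertain for the reason given further on, these were 4 of 5, with a median of -0.40. Of all genes with such a ratio, 6428 of 12625 were below 0. The paternally expressed genes here did not move as 1 unit. *Snrpn*, which encodes the splicing protein SmN, had 89.7, 118 and 67.9, and *Ndn*, the MAGE family protein necdin, 6.10, 7.19 and 4.96, with log2 ratios of -0.40 and -0.30. *Magel2* (chr7:62377010-62381640), another MAGE family gene close to *Ndn*, had 4.40, 4.09 and 1.39. Its log2 ratio was -1.66 in *tw18*/*tw18* (counting interval -1.98 to -1.36), from about 280 and 123 fragments, and -0.10 in *tw18*/+. *Mkrn3*, a ubiquitin ligase of the makorin family, had 1.36, 0.367 and 0.287, a log2 ratio of -2.25 (counting interval -3.23 to -1.37) in *tw18*/*tw18* and -1.90 in *tw18*/+, from about 48, 18 and 14 fragments. *Peg12* stayed under an FPKM of 0.3 in every library. *Ube3a*, a ubiquitin ligase imprinted in neurons, had 17.6, 16.9 and 18.6, with the narrowest range of the 6.

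*Snurf* had the largest ratio towards lower values among the 42 genes, with 29.1 in wild type, 26.3 in *tw18*/+ and 1.37 in *tw18*/*tw18*, a log2 ratio of -4.41. It encodes a short protein upstream of SmN on the same RNA as *Snrpn*, and its exons overlap those of *Snrpn* on the same strand. How fragments were divided between both symbols cannot be seen in the table, and *Snrpn* stood at 3.08, 4.49 and 49.6 times the FPKM of *Snurf*. The value of *Snurf* alone is therefore uncertain. The ratio of *Snrpn* to *Ndn* was 14.7, 16.4 and 13.7.

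*Plagl1* (chr10:13060504-13131694), a zinc finger transcription factor, had 1.86, 1.88 and 4.81. Its log2 ratio was 1.37 in *tw18*/*tw18* (counting interval 1.09 to 1.66), from about 134 and 484 fragments, and 0.02 in *tw18*/+, so that only the *tw18*/*tw18* library differed. *Zrsr1*, a retrogene related to the splicing factor U2AF, had 1.60, 2.15 and 4.23, a log2 ratio of 1.40 (counting interval 1.09 to 1.75) in *tw18*/*tw18* and 0.43 in *tw18*/+. It lies within *Commd1*, a gene that acts in copper export and runs on the opposite strand. *Commd1* differed in the other mutant library, with 37.0, 69.8 and 35.3 and a log2 ratio of 0.92 in *tw18*/+ (counting interval 0.85 to 0.99). Exons of the pair overlap in the annotation. Promoter windows of *Commd1* stand at different starts, so its interval depends on the transcript length used. Another retrogene, *Nap1l5* of the nucleosome assembly protein family, had 1.72, 0.137 and 0.385. Its log2 ratios were -2.16 in *tw18*/*tw18* (counting interval -3.11 to -1.24) and -3.65 in *tw18*/+, from about 44, 5 and 14 fragments, so *tw18*/+ was the lowest of the 3 libraries.

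The *Peg10*-*Sgce* cluster of Chr 6 had lower values in *tw18*/*tw18* for 3 of its 4 genes, with a median log2 ratio of -0.57. Of all genes with such a ratio, 6428 of 12625 were below 0. *Peg10*, a retrotransposon-derived gene needed for the placenta, had 84.1, 70.2 and 64.8 (log2 ratio -0.38) and its neighbour *Sgce*, epsilon-sarcoglycan, 9.51, 7.33 and 5.63 (-0.76). *Calcr*, the calcitonin receptor, which is imprinted in the brain, had 2.32, 1.63 and 1.04, a log2 ratio of -1.16. In these 3 genes *tw18*/+ lay between wild type and *tw18*/*tw18*. *Ppp1r9a*, which encodes neurabin, had 4.06, 5.06 and 4.21.

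The remaining genes that reached an FPKM of 1 stayed within a log2 ratio of 1 of wild type in both mutant libraries. *Sfmbt2*, a Polycomb group gene needed for the trophoblast, had 10.5, 8.54 and 17.8, a log2 ratio of 0.76 against wild type and 1.06 against *tw18*/+. *Zdbf2*, which encodes a zinc finger protein, had 7.31, 7.40 and 4.69 (log2 ratio -0.64 in *tw18*/*tw18*), and *Peg3*, another zinc finger gene, 49.0, 38.9 and 63.6 (0.38). *Mest*, of the alpha/beta hydrolase fold family, had 79.4, 93.1 and 66.6, and *Impact*, a regulator of GCN2 signalling, 26.7, 23.1 and 22.5. *Mcts2*, a retrogene within *H13*, had 15.7, 23.2 and 16.1, and *H13*, signal peptide peptidase, 17.1, 15.8 and 19.1. Values within a narrow range were also those of *Gnas*, which encodes the stimulatory G protein alpha subunit (269, 261 and 240), *Nnat*, neuronatin (10.5, 11.9 and 10.3), and *Blcap*, in whose intron *Nnat* lies (9.26, 9.67 and 10.4). *Nespas*, antisense to *Gnas* transcripts, had 3.22, 2.79 and 3.62. The members of the *Peg3* domain *Usp29* (0.218, 0.0992 and 0.143) and *Zim1* (0.476 and 0.133, listed at 0 in *tw18*/*tw18*) stayed under an FPKM of 0.5, too low to be counted.

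**Figure D3:**
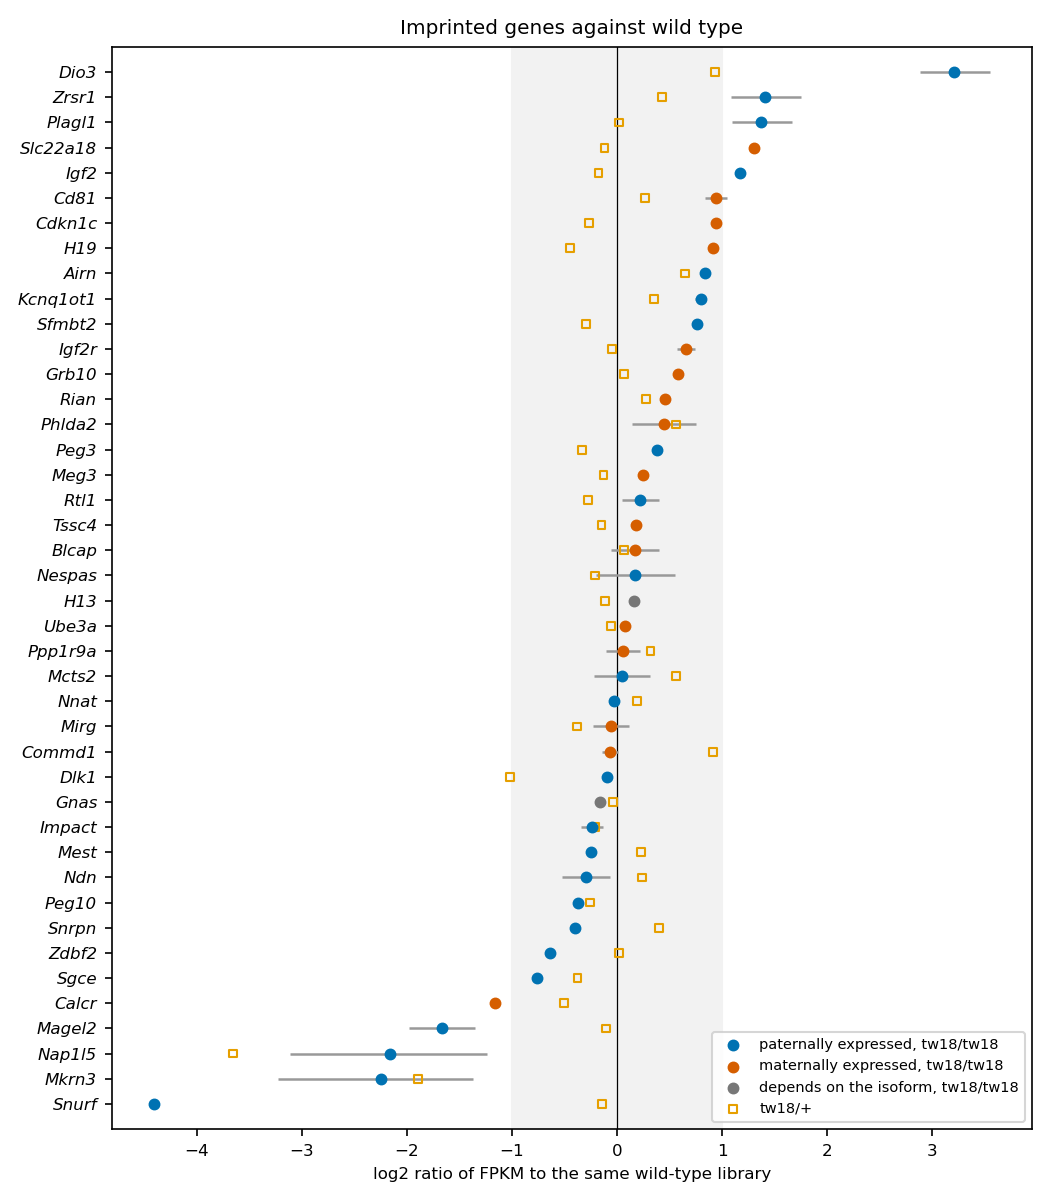
Log2 ratio of FPKM to the wild-type library for the 42 imprinted genes that reached an FPKM of 1 in wild type or tw18/tw18, filled circles for tw18/tw18 coloured by the expressed allele and open squares for tw18/+. Grey lines are 95% counting intervals of the tw18/tw18 ratios where a single transcript length was matched, the grey band spans -1 to 1, and Dio3 (3.21) and Snurf (-4.41) stand at the ends.

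Exons of 18 of the 48 genes overlap those of another gene of the table, in several cases those of microRNAs. The library kit was run to keep strand, but whether fragments were counted by strand is not given in the sources used here. Reads of *Kcnq1ot1* and *Kcnq1*, *Nespas* and *Gnas*, *Zrsr1* and *Commd1*, and *Mest* and *Copg2* can therefore not be told apart with certainty.

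RNA of cell type markers also differed between the libraries. In bulk RNA, fewer cells of a type and less RNA per cell cannot be told apart. All 10 epiblast markers, among them *Pou5f1* and *Nanog*, reached an FPKM of 1 in every library, and so were all 10 visceral endoderm markers, among them *Apoa1* and *Hnf4a*. The summed epiblast markers had 1855 in wild type, 1963 in *tw18*/+ and 932 in *tw18*/*tw18*, with 6 of 10 past the threshold towards lower values in *tw18*/*tw18*, among them *Dnmt3b* at its edge. The summed primitive streak markers had 178, 120 and 55.6, with 7 of 7 past it, and *T* and *Mesp1* are listed at 0 in *tw18*/*tw18*. The visceral endoderm list had 891, 892 and 1165, with 1 of 10 past the threshold towards higher values. Of all genes, 15.1% were past it towards higher and 6.94% towards lower values. Epiblast and streak sums were thus lowest in *tw18*/*tw18*, the library with the highest sum of maternally expressed genes, of which 1 was past the threshold in each direction.

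Several lists of markers of cells outside the embryo proper had genes past the threshold towards higher values in *tw18*/*tw18*, as had 15.1% of all genes. The 9 extra-embryonic ectoderm markers summed to 30.4, 33.8 and 55.8. Of the 8 that reached an FPKM of 1 in wild type or *tw18*/*tw18*, 6 were past the threshold. The 5 parietal endoderm markers summed to 202, 238 and 528 with 4 of 5 past it. The 10 markers of stroma and decidua summed to 1626, 319 and 1051, with 8 past the threshold towards higher and 1, the decidual prolactin *Prl8a2* (1504, 155 and 377), towards lower values. Without *Prl8a2*, left out after its values were seen, they summed to 122, 164 and 674 and all 9 were higher in *tw18*/*tw18* than in wild type. The 7 endothelial markers summed to 53.0, 42.2 and 99.2 with 4 of 7 past the threshold, and the 7 immune markers to 21.8, 13.4 and 35.3. Of the 5 immune markers that reached an FPKM of 1 in wild type or *tw18*/*tw18*, 2 were past it. The trophoblast giant cell list did not move 1 way. Its sum of 124, 65.4 and 211 was mostly *Prl3d1* (113, 61.5 and 202), which was under the threshold, while 0 of its 3 measured genes were past it towards higher and 1, *Prl2c2* (1.74, 0.131 and 0.396), towards lower values, with *Prl3b1* and *Ctsq* listed at 0 in all libraries. Adult erythroid genes, of which *Hba-a1* and *Hba-a2* are near-identical copies, summed to 52.5, 56.3 and 177, while the 3 embryonic globin genes are listed at 0 in all libraries. The part of these cell types in the values of *Dio3*, *Igf2*, *H19*, *Plagl1* and the other imprinted genes was not tested.

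**Figure D4:**
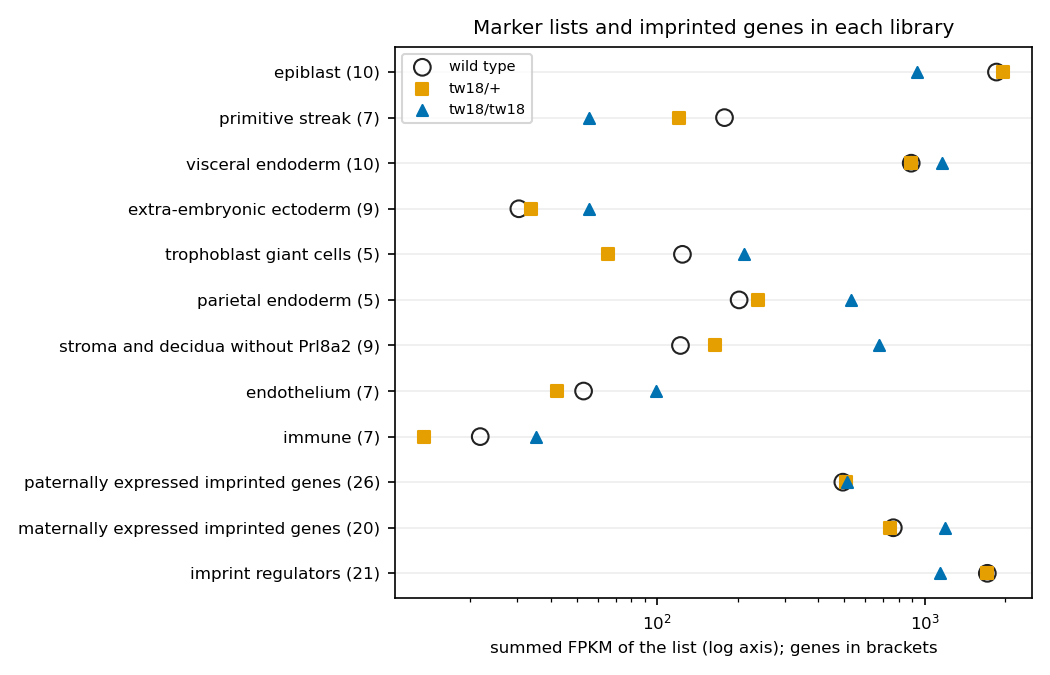
Summed FPKM (log axis) in the 3 libraries of the marker lists other than the erythroid ones, the imprinted genes by expressed allele and the imprint regulators. The number of genes is in brackets. The stroma and decidua list is drawn without Prl8a2, and with it summed to 1626, 319 and 1051. Epiblast (1855, 1963 and 932) and primitive streak markers are lowest in tw18/tw18, whereas stroma and decidua without Prl8a2 (122, 164 and 674) and maternally expressed imprinted genes (763, 742 and 1193) are highest there.

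The list of 21 imprint regulators mixes factors that set or keep imprints with the *Tet* dioxygenases, which act in removing DNA methylation. Of the 21, 3 (14.3%) were past the threshold towards higher and 1 (4.76%) towards lower values in *tw18*/*tw18*. This is near the 15.1% and 6.94% of all genes. A log2 ratio could be formed for 20 of them, and 16 of these lay below 0, with a median of -0.26. *Dnmt3b*, the de novo DNA methyltransferase of the epiblast, had 719, 733 and 359, a log2 ratio of -1.0005 that median centring took to -0.95 and equal FPKM sums to -0.79, both under the threshold. It also stands in the epiblast marker list. *Zfp57*, the zinc finger protein that binds methylated TGCCGC, had 8.99, 15.8 and 21.5, a log2 ratio of 1.26, and was higher in *tw18*/+ as well (0.82). The dioxygenase *Tet2* (1.89, 1.97 and 6.84) was past the threshold as well. *Dppa3* (1.34 in *tw18*/*tw18*, listed at 0 in the others) has no ratio and was counted among the 3 only by the rule for zeros. Equal FPKM sums move each of these ratios up by 0.21, which brings the median of the list close to 0.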

How the data were processed

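Total RNA libraries, 1 per genotype, were made from the embryo proper at E6.5 and read as 50 bp pairs. The authors mapped the reads to mm10 with TopHat2 and deposited 1 table of FPKM values from Cuffdiff. The submitters' processing notes also list Bowtie 1.0.0 and Cufflinks 2.2.1. The gene annotation and library normalization used are not given in the sources used here. Genotypes were taken from the sample labels.

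Calculations on the deposited FPKM used scipy 1.17.1, pandas 2.3.3 and numpy 2.4.6 in Python 3.11.15, with plots from matplotlib 3.10.9. With 1 library per genotype no test was run. Log2 ratios use no pseudocount. A gene was counted at an FPKM of at least 1 in either library and a log2 ratio of at least 1, and a 0 was counted if the other library reached 1. Fragments were estimated from the spacing of low FPKM values in 3159 genes with a single transcript, using 157, 327 and 235 values, of which 83.4% to 87.2% lay within 0.2 of a whole number. They are given for genes with a single RefSeq-matched transcript length of at least 400 bases. Other annotated transcripts of such a gene were not taken into account. Counting intervals are exact conditional binomial (Clopper-Pearson), and amplified fragments are not independent molecules. Positions came from GENCODE M21 (GRCm38), and promoters from RefSeq (GRCm38.p6).

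Every imprinted gene with an FPKM of at least 1 in 1 or more libraries was named with its values. Regulators and further imprinted genes were named where past the threshold at an FPKM of at least 10, and the others named were chosen after their values were seen. The imprinted genes and all lists were chosen with earlier results of these data known. The counting steps were tested on simulated data. Alternatives were pseudocounts of 0.1 and 1, no filter or a filter at 10, median centring, equal FPKM sums, *tw18*/+ as the reference, and, chosen after seeing the data, the genes without exon overlap, the *Snrpn* cluster without *Snurf*, the maternally expressed sum without *H19* and promoter windows with overlaps counted once.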

Additional observations from a re-analysis of the deposited data

How the results depend on the processing

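Every value rests on 1 library per genotype, so no replicate could be left out. No paired analysis was possible because each genotype has 1 library and no test was run. The 5 imprinted genes higher in *tw18*/*tw18* than in wild type became 8 without a filter (16.7%, against 24.2% of all genes), 2 at an FPKM of at least 10 (7.69% against 6.79%) and 10 with equal FPKM sums (23.8% against 19.3%). The 5 lower ones became 2 with a pseudocount of 1 (4.76% against 4.12%), 1 at an FPKM of at least 10 (3.85% against 3.41%) and 2 with *tw18*/+ as the reference (5% against 5.65%). The 3 past the threshold in *tw18*/+ became 1 with a pseudocount of 1 (2.44% against 4.43%), 8 without a filter (17% against 25.7%) and 0 at an FPKM of at least 10 (against 1.53%). With a pseudocount of 1, *Slc22a18*, *Calcr*, *Mkrn3* and *Nap1l5* were no longer past the threshold, since all 4 have low values. Equal FPKM sums brought *H19*, *Airn*, *Cdkn1c*, *Kcnq1ot1* and *Cd81* past it and took *Calcr* under it. Against *tw18*/+, *H19*, *Cdkn1c* and *Sfmbt2* passed it, *Calcr*, *Mkrn3* and *Zrsr1* did not, and *Nap1l5* turned to a log2 ratio of 1.49. *Mkrn3* and *Nap1l5* were under an FPKM of 1 in each library of this pair, so they were not counted in it. For these settings other than the pseudocount the cause was not tested. Among 27 genes without exon overlap, 4 were higher and 4 lower. A pseudocount of 0.1 and median centring, which adds 0.049 to each log2 ratio of *tw18*/*tw18* against wild type, changed no call of *tw18*/*tw18* against wild type among the 42 genes, while in *tw18*/+ a pseudocount of 0.1 took *Dlk1* under the threshold and left 2. Depth limits the genes with few fragments, such as *Nap1l5* with about 5 in *tw18*/+.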

Other observations

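Of 32 further imprinted genes, 30 were in the table, and they are known for narrower or less certain imprinting. In *tw18*/*tw18* against wild type, of the 22 that reached an FPKM of 1, 7 (31.8%) were past the threshold towards higher and 2 (9.09%) towards lower values, against 15.1% and 6.94% of all genes. The median log2 ratio of these 22 was 0.33, 16 of them above 0. *Dcn*, the matrix proteoglycan decorin, stood at 4.0 FPKM in wild type, 3.15 in *tw18*/+ and 17.8 in *tw18*/*tw18*, a log2 ratio of 2.16. *Gatm*, an enzyme of creatine synthesis, had 27.3, 23.8 and 79.0, a log2 ratio of 1.54. *Smoc1*, which encodes a matricellular protein, had 6.21, 6.77 and 16.3, and *Ddc*, the decarboxylase that makes dopamine and serotonin, 6.24, 7.19 and 12.8, with log2 ratios of 1.39 and 1.03. The amino acid transporter *Slc38a4* had 9.61, 7.58 and 3.98 and *Tnfrsf22*, a decoy receptor of the TNF family, 4.20, 4.67 and 1.86, with log2 ratios of -1.27 and -1.18. These 2 were the genes past the threshold towards lower values. Between *tw18*/+ and wild type, 0 of 21 were past the threshold, against 4.7% higher and 5.02% lower among all genes. *Htr2a* and *Kcnk9* are listed at 0 in all libraries.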
